A study of Nothobranchius furzeri with 24 samples.

Results

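The brains described here came from 8 wild female turquoise killifish (Nothobranchius furzeri), 4 caught at 39 days post hatch (dph) and 4 at 108 dph, out of 24 fish in the series. They were chosen by sex and age from the labels, and no measured value entered the choice. All carried the strain label MZM_A41 and were untreated. According to the study, they were taken from natural ponds during a single season and dissected in the early morning, their age was estimated from the flooding of the pond and checked on the daily rings of the ear stones, and no growth was seen between the samplings. The 4 females of 73 dph served to estimate the spread between fish and to place intermediate values, and 4 males each of 39 and 108 dph were set beside the females. Since older fish were caught later in the season, the effects of age and of date cannot be told apart. RNA of whole brain is a mixture of neurons, glia, vessels and blood, and no level was measured in any cell type alone.

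The turquoise killifish lives in temporary ponds and completes its life in a few months, and it is used as a model of rapid ageing. As in other teleosts, its brain keeps dividing radial glia and adds neurons in the adult, so genes of mitosis and of young neurons are read in adult tissue. Myelin is made by oligodendrocytes. Fish erythrocytes keep their nuclei and carry messenger RNA, so blood left in the vessels contributes transcripts of globin and of heme synthesis. Immediate early genes are switched on within minutes by neuronal firing or stress, and clock genes vary with the time of day.

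Expression is given in CPM, the reads of a gene scaled to a common library size with TMM factors, and a change is the log2 fold change of 108 over 39 dph with its standard error (SE). Totals ran from 14422009 to 18507236 assigned reads in 11 of the 12 female libraries. The exception was 39 dph replicate 4 with 4595506 reads, where 1 read is worth 0.23 CPM, against 0.0537 to 0.0693 CPM in the others. Replicate numbers only name the fish and pair nothing. Brain genes were abundant in every female, with the synaptic gene SNAP25 (Nfu_g_1_017443) at 1677 to 2235 CPM and the glial gene S100B at 2460 to 4349 CPM.

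A gene was called when its false discovery rate (FDR, the Benjamini-Hochberg adjusted p of edgeR's quasi-likelihood test) was below 0.05. Between 39 and 108 dph, 4486 of 18824 genes tested were called (23.8%), 2312 higher (12.3%) and 2174 lower (11.5%) at 108 dph. Most changes were small. The absolute log2 fold change of called genes had a median of 0.51, and 2614 of them (58.3%) changed less than 1.5-fold. At least 2-fold changes were found in 413 genes upward and 253 downward, and at least 4-fold changes in 62 and 37. The lowest fish of one age lay above the highest of the other in 4763 genes (25.3% of those tested), 2454 with higher and 2309 with lower values at 108 dph, and 3796 of the called genes (84.6%) were among them. Without the shallow 39 dph library 3931 genes were called. Of the 4486 genes, 3631 (80.9%) were called again in the same direction, 855 were not called, and 0 were called in the opposite direction.

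The share of called genes grew with expression, from 9.88% in the lowest to 33.9% in the highest of 5 equal bins of mean log2 CPM. In the lowest bin the median log2 fold change was 0.12, and in the highest it was -0.04, against 0.01 over all genes. Over 5 equal bins of gene length the medians differed less, between -0.03 and 0.04, but the direction of the calls differed. Among the shortest genes 7.86% were called higher and 11% lower, and among the longest 15.9% higher and 12.6% lower. The share called was 18.8% in the bin of the shortest genes and 28.5% in that of the longest.

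Names are those of the human gene that the study's tables pair with a killifish gene identifier, which was possible for 7368 identifiers, 7339 of them tested. Where a name belongs to several identifiers, the identifier is given. Those tables list genes that the study called, in part from these fish, and 38.8% of the named genes were called here, 19.7% higher and 19.2% lower. The gene lists below therefore count named genes only, their counts stand against these shares, and they are not independent evidence of a direction. The median log2 fold change over all named genes was 0.00.

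Large changes are given for named genes with a mean log2 CPM of at least 1, no overlap between the ages and a call with and without the shallow library. Since the lack of overlap was required, it is no separate support for these changes. The largest rise among them was that of ARNTL2 (Nfu_g_1_012032), a partner of CLOCK in the circadian activator. It stood at 4.57, 6.04, 6.32 and 16.8 CPM in the 4 fish of 39 dph and at 78.8, 71.3, 72.9 and 59.5 CPM at 108 dph. The shallow library was the highest of the young fish, and the groups did not overlap. The log2 fold change was 3.25 (SE 0.34, FDR 8.9e-05), and 3.64 (FDR 4.8e-05) without the shallow library. At 73 dph the gene was already at 40.0 to 81.5 CPM.

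Much tighter among fish was FBRS, whose killifish gene carries the symbol AL929039.2. It stood at 157, 142, 162 and 137 CPM at 39 dph and at 583.5, 589.8, 637 and 662 CPM at 108 dph. No fish came near the other age, and the 73 dph females, at 600.8 to 653 CPM, were among the old ones. Its log2 fold change of 2.05 (SE 0.07) had the FDR of 1e-08. ARRDC3, an arrestin-domain protein that takes part in the sorting of membrane receptors, went from 276, 294, 323 and 319.8 CPM to 1609, 1221, 1165 and 978 CPM, also without overlap (log2 fold change 2.04, SE 0.14, FDR 1.4e-05). The females of 73 dph lay between, at 480.1 to 655 CPM.

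Other large rises were in genes of lower level. FAH, the last enzyme of tyrosine breakdown, stood at 1.38 to 3.91 CPM at 39 dph and at 8.12 to 21.9 CPM at 108 dph (log2 fold change 2.41, SE 0.41, FDR 0.0017). SLC16A13, of the monocarboxylate transporter family, rose by 2.40 (SE 0.39, FDR 0.0012) and ETHE1, a mitochondrial sulfur dioxygenase with no read in the shallow library, by 2.03 (SE 0.52, FDR 0.014). SIGIRR, which restrains interleukin-1 receptor signalling, gained 2.15 (SE 0.54, FDR 0.013). C7, a component of the complement membrane attack complex, stood at 3.60, 3.48, 4.70 and 5.53 CPM in the young and at 32.1, 11.3, 13.8 and 13.1 CPM in the old fish, where replicate 1 stood above the other 3 (log2 fold change 2.06, SE 0.36, FDR 0.0019).

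A few of these calls rested on particular fish. GPNMB, a glycoprotein of phagocytic cells, was at 13.8 CPM in 108 dph replicate 1 and at 2.79 to 4.83 CPM in the other old fish, against 0.80 to 2.53 CPM in the young. Its log2 fold change of 2.09 (SE 0.62, FDR 0.028) became 1.41 (FDR 0.091) without that fish, and the call was also lost without 39 dph replicate 1 (FDR 0.075), 2 (0.081) or 3 (0.051). RFESD, a Rieske iron-sulfur protein, with 2.03 (SE 0.56, FDR 0.02), was lost without 39 dph replicate 2 or 3 (FDR 0.064 each). The remaining large rises, GATA1 and the HBG1 copy Nfu_g_1_007641, are given with the erythrocyte genes.

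The largest fall under the same conditions was that of NAB2. It encodes a corepressor that binds EGR factors and was at 21.1, 52.5, 64.2 and 55.3 CPM at 39 dph and at 13.3, 11.9, 8.03 and 6.18 CPM at 108 dph (log2 fold change -2.29, SE 0.38, FDR 0.0014). NPAS4, a transcription factor induced by neuronal activity, was at 389.6, 318, 301 and 257 CPM in the young and at 41.8, 55.9, 66.1 and 123 CPM in the old fish. The groups did not overlap in either gene, although 39 dph replicate 1 was the lowest of its age in NAB2 and the highest in NPAS4. NPAS4 fell by 2.14 on the log2 scale (SE 0.32, FDR 0.00072), and the nuclear receptor NR4A3 fell by 1.85 (SE 0.33, FDR 0.0021).

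Both DNAJB5 and DNAJA4 were also among the 12 largest such falls. DNAJB5 (Nfu_g_1_006784), a partner of HSP70, went from 734, 839.8, 621 and 649.7 CPM to 204, 211, 219 and 269 CPM (log2 fold change -1.65, SE 0.14, FDR 2.9e-05). DNAJA4, of the same family, fell by 2.00 (SE 0.17, FDR 2.9e-05). For both genes every old fish was below every young one, and leaving out any 1 of the 8 fish kept the FDR at or below 0.00022.

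Other large falls were in genes of lower level. SLC5A11, a sodium-coupled myo-inositol transporter, fell by 2.16 (SE 0.32, FDR 0.00071), and DPYD, the first enzyme of pyrimidine breakdown, by 1.69 (SE 0.20, FDR 0.00016). CCNYL1 (Nfu_g_1_013119), a cyclin Y relative, fell by 2.03 (SE 0.34, FDR 0.0014) and ASB14 (Nfu_g_1_021391) by 1.72 (SE 0.25, FDR 0.00065). CYP2J2 (Nfu_g_1_018630), a fatty acid epoxygenase, had a log2 fold change of -1.67 (SE 0.50, FDR 0.029). Its call was lost without 39 dph replicate 3 (FDR 0.10), which at 13.4 CPM was far above the other young fish at 5.09 to 5.99 CPM, and also without 108 dph replicate 2 (FDR 0.077) or 3 (FDR 0.074). SQLE is given with the sterol genes.

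**Figure D1:**
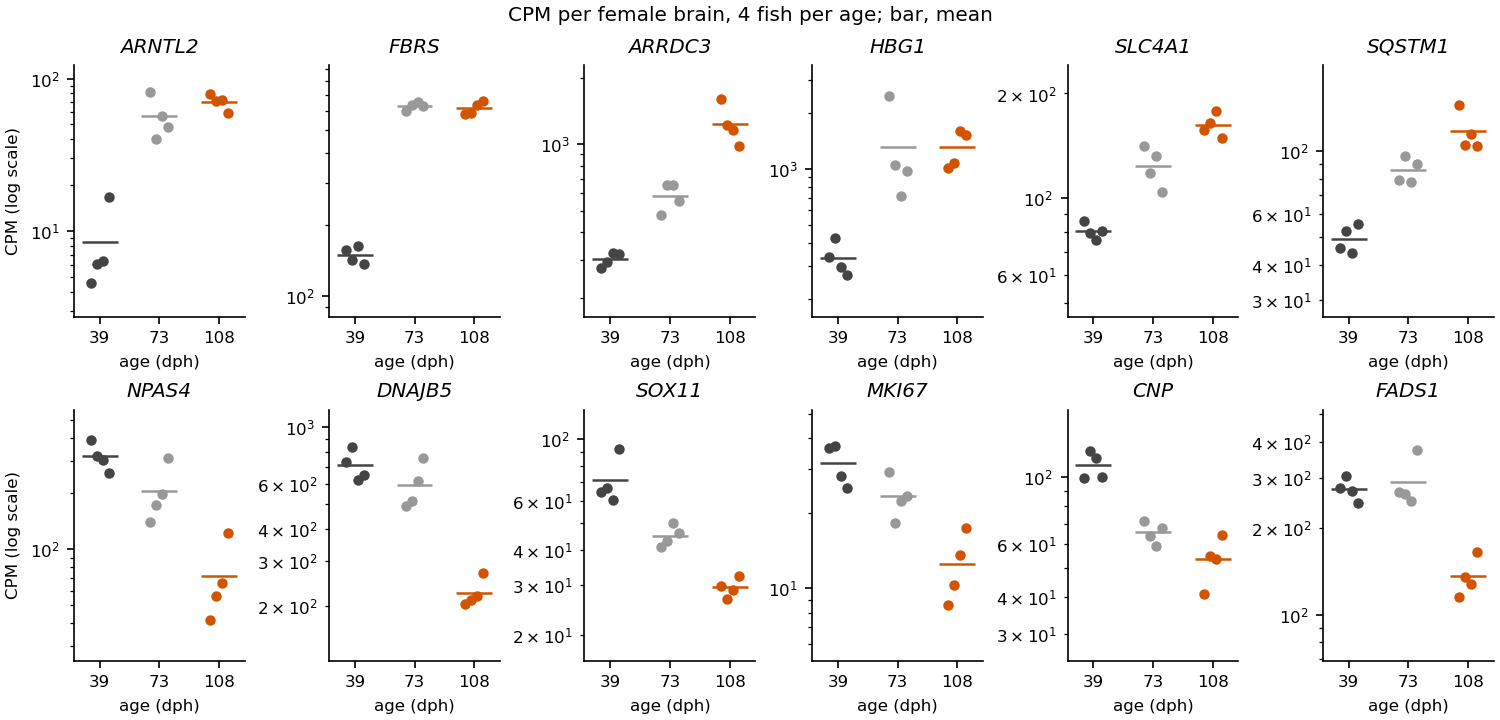
CPM on a log scale for 12 genes in 4 females each of 39, 73 and 108 dph, 1 point per fish, with the mean as a bar. ARNTL2 is Nfu_g_1_012032, HBG1 is Nfu_g_1_007654 and DNAJB5 is Nfu_g_1_006784. In all 12 genes the fish of 39 and 108 dph do not overlap, while FBRS at 73 dph, 600.8 to 653 CPM, is at the level of 108 dph and DNAJB5 at 73 dph, 492 to 755 CPM, is near that of 39 dph.

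Among genes without a human name that met these conditions, Nfu_g_1_018625 and Nfu_g_1_013062 rose most, with log2 fold changes of 4.25 (SE 1.1, FDR 0.013) and 3.72 (SE 0.84, FDR 0.0076). Both were at no more than 0.60 CPM in the young fish, and Nfu_g_1_013062 was low also in 108 dph replicate 1, at 0.67 CPM, against 5.87 to 8.22 CPM in the other old fish. Nfu_g_1_018625 was uneven among the old fish, at 7.45, 10.4, 1.25 and 0.91 CPM. The largest falls were those of Nfu_g_1_009741 (-1.99, SE 0.43, FDR 0.0059) and Nfu_g_1_016331 (-1.91, SE 0.45, FDR 0.0099).

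Lists of genes by function or cell type were then read in the same fit. Among lists with at least 10 tested members, mitosis, myelin, young neurons and immediate early genes held the largest shares called lower, and erythrocyte markers and lysosome and autophagy genes the largest shares called higher. The bars for these lists show these shares beside those of all named genes.

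**Figure D2:**
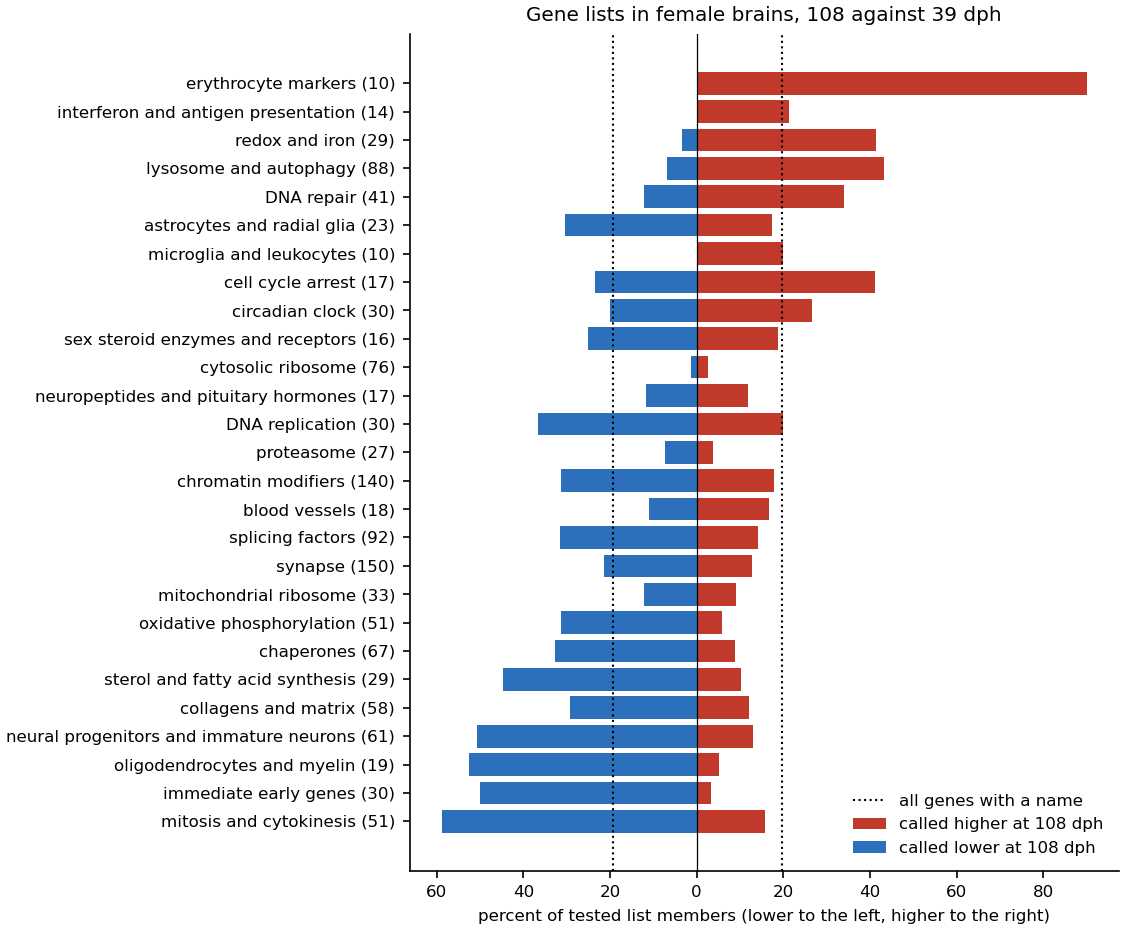
Percent of tested list members called higher (red, to the right) and lower (blue, to the left) at 108 dph, with the number tested in parentheses, in order of the median log2 fold change. Dotted lines mark all named genes, 19.7% higher and 19.2% lower. Erythrocyte markers reach 90% higher, and mitosis and cytokinesis 58.8% lower.

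Genes of mitosis and cytokinesis fell. Of 51 tested, 30 were lower and 8 higher, with a median log2 fold change of -0.68. MKI67, a nuclear protein of cycling cells, was at 36.6, 37.1, 28.1 and 25.1 CPM at 39 dph and at 8.55, 10.3, 13.6 and 17.4 CPM at 108 dph. All old fish were below all young ones (log2 fold change -1.36, SE 0.22, FDR 0.0011). CCNB2, a mitotic cyclin, fell by 0.58 (SE 0.09, FDR 0.001) and LMNB1, a lamin of the nuclear envelope, by 0.52 (SE 0.07, FDR 0.00055). In bulk tissue, fewer cells of a type and less RNA per cell cannot be told apart.

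Of the genes the study names, ANLN, which scaffolds the cleavage furrow, was at 21.8, 26.7, 7.55 and 24.4 CPM in the young and at 4.42, 7.79, 5.68 and 8.86 CPM in the old fish, so that 39 dph replicate 3 lay within the old group (log2 fold change -1.57, SE 0.34, FDR 0.0059). The same young fish was the highest for the spindle motor KIF11, at 43.3 CPM against 17.8 to 18.9 CPM in the other young and 7.64 to 14.3 CPM in the old fish (log2 fold change -1.33, SE 0.30, FDR 0.0082). Members that went the other way were CENPO (1.27, SE 0.21, FDR 0.0015), a kinetochore protein, NCAPG2 (0.85, SE 0.16, FDR 0.0033), a condensin subunit, and MAD2L1 (0.60, SE 0.13, FDR 0.0059), of the spindle checkpoint. The most abundant member, the microtubule protein CKAP5, had a log2 fold change of 0.17 (SE 0.05, FDR 0.027), and its call was lost on leaving out any 1 of the 8 fish except 108 dph replicate 4, with an FDR of up to 0.078.

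Of 30 DNA replication genes tested, 11 were lower and 6 higher, and the median was -0.04. The share called lower was above the 19.2% of all named genes, while the share called higher was near their 19.7%. Lower were MCM4 (-1.17, SE 0.18, FDR 0.001), a subunit of the replicative helicase, and the makers of DNA precursors TYMS (-1.12, SE 0.16, FDR 0.00048) and RRM1 (Nfu_g_1_005253; -1.57, SE 0.24, FDR 0.00086). TYMS went from 25.0, 28.9, 25.3 and 20.7 CPM to 12.8, 10.3, 9.003 and 14.2 CPM, without overlap. Higher were DNA2, a nuclease and helicase that trims DNA ends, POLA1, the catalytic subunit of polymerase alpha, TOPBP1, which helps activate the ATR checkpoint, and PRIM1, the primase. DNA2 was at 15.6, 11.7, 15.99 and 11.98 CPM at 39 dph and at 24.9, 19.2, 27.2 and 21.4 CPM at 108 dph (log2 fold change 0.73, SE 0.14, FDR 0.0032). PRIM1 rose by 0.50 (SE 0.12, FDR 0.0095) and POLA1 by 0.53 (SE 0.11, FDR 0.0049), again without overlap of the ages. The most abundant member, the maintenance methyltransferase DNMT1, gave 0.20 (SE 0.07, FDR 0.072).

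DNA repair genes leaned the other way from mitosis, with 14 of 41 higher, 5 lower and a median of 0.24. ATR, the kinase that senses stalled forks, was at 15.3, 13.2, 12.5 and 11.3 CPM in the young and at 29.3, 23.1, 27.8 and 23.0 CPM in the old fish (log2 fold change 0.97, SE 0.11, FDR 0.00016). PMS2, of mismatch repair, rose by 0.84 (SE 0.11, FDR 0.00027) and TDP1, which removes trapped topoisomerase, by 0.65 (SE 0.09, FDR 0.00052). XRCC2, which serves homologous recombination, stood at 10.7, 7.62, 7.94 and 7.83 CPM at 39 dph and at 15.03, 13.1, 12.74 and 13 CPM at 108 dph (log2 fold change 0.65, SE 0.13, FDR 0.0038). The fallers were base excision and single-strand break enzymes for the most part, with APEX1 at -0.81 (SE 0.14, FDR 0.0018), LIG3 at -0.31 (SE 0.06, FDR 0.002) and PARP1 at -0.46 (SE 0.09, FDR 0.0027). Other base excision genes, named after their values were seen, went both ways. MUTYH was at 1.47 (SE 0.33, FDR 0.008). TDG was at 0.54 (SE 0.11, FDR 0.0055) for Nfu_g_1_018084 and at -0.44 (SE 0.11, FDR 0.013) for Nfu_g_1_018147. In the list of cell cycle arrest genes 7 of 17 were higher and 4 lower. MDM2, a ubiquitin ligase, rose by 0.64 (SE 0.13, FDR 0.0053), while CCND1, the G1 cyclin (-0.81, SE 0.15, FDR 0.0023), fell. Without 39 dph replicate 2 the higher members of that list numbered 3, and without replicate 3 they numbered 4.

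**Figure D3:**
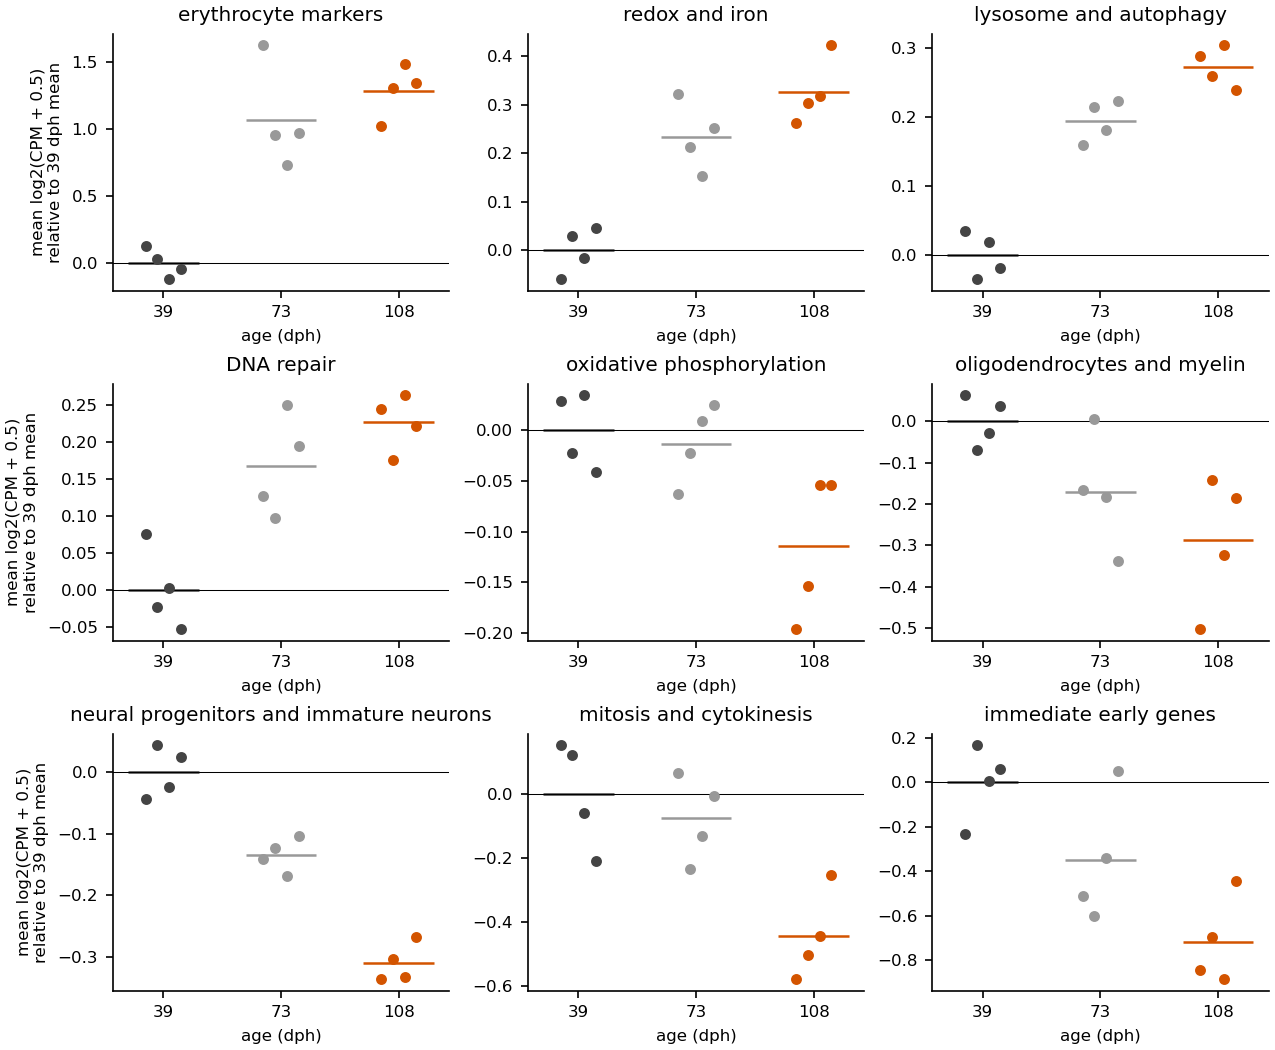
Mean over list members of log2(CPM + 0.5), relative to the mean of the 39 dph fish, for 9 lists in 4 females each of 39, 73 and 108 dph, with the group mean as a bar. The fish of 39 and 108 dph do not overlap in any of these lists. Mitosis genes at 73 dph, -0.24 to 0.07, overlap with 39 dph, while lysosome and autophagy genes, 0.16 to 0.22, do not.

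Genes of neural progenitors and immature neurons were lower in 31 of 61 cases and higher in 8, with a median of -0.32. SOX11, a transcription factor of newborn neurons, was at 64.5, 66.7, 60.6 and 91.9 CPM in the young and at 29.9, 26.9, 28.8 and 32.3 CPM in the old fish (log2 fold change -1.26, SE 0.12, FDR 5.6e-05). SOX4 (Nfu_g_1_001775), its close relative, fell by 1.38 (SE 0.12, FDR 2.9e-05) from 28.7 to 37.2 CPM to 12.01 to 16.1 CPM. MARCKSL1 (Nfu_g_1_016469), a regulator of the actin cortex in growing neurites, showed a smaller but very even fall of 0.47 (SE 0.04, FDR 3.8e-05). For all 3 genes the females of 73 dph lay between the ages.

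The risers of that list included inhibitors of differentiation. ID3 went from 36.8, 35.0, 33.4 and 35.5 CPM to 69.9, 99.9, 105 and 133 CPM (log2 fold change 1.54, SE 0.15, FDR 5.3e-05), and ID1 from 22.4 to 24.4 CPM to 39.7 to 49.6 CPM (0.97, SE 0.09, FDR 4.1e-05). Both encode proteins that block basic helix-loop-helix factors. The chromatin protein HMGB1 (Nfu_g_1_022124) rose by 0.58 (SE 0.07, FDR 0.00016), while the other identifier of that name was called lower, at -0.18. FABP7 (Nfu_g_1_018689), the most abundant member and a lipid carrier of radial glia, had overlapping groups (-0.53, SE 0.16, FDR 0.029), and its call was lost without 108 dph replicate 1 (FDR 0.072), 2 (0.058) or 3 (0.071) and without 39 dph replicate 1 (0.056) or 2 (0.069). The 8 risers numbered 5 without 39 dph replicate 2 or 3 or 108 dph replicate 3.

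Immediate early genes were lower in 15 of 30 cases and higher in 1, with a median of -0.60. JUND, a subunit of the AP-1 factor, was at 90.6, 134, 124 and 127 CPM at 39 dph and at 33.3, 40.0, 34.1 and 47.4 CPM at 108 dph (log2 fold change -1.62, SE 0.16, FDR 6.5e-05). JUN (Nfu_g_1_020727) fell by 0.88 (SE 0.12, FDR 0.00045) and the kinase PLK3 by 0.78 (SE 0.11, FDR 0.00038), with no overlap of the ages. Not every member moved. EGR1, the most abundant, was at 341.9, 250.9, 199.9 and 156 CPM in the young and at 142, 212, 198 and 193 CPM in the old fish (-0.35, SE 0.21, FDR 0.24). A second riser was called without 108 dph replicate 1. The riser of the full fit, CTGF, encodes a secreted matrix protein (1.16, SE 0.26, FDR 0.0079) and overlapped between the ages. Mean levels of the list in the 73 dph females ran from -0.60 to 0.05 on the log2 scale relative to 39 dph, and at 108 dph from -0.89 to -0.45.

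Among chaperones 22 of 67 were lower and 6 higher, and the median was -0.15. Beside DNAJB5 and DNAJA4, both gene copies named HSPA5, the HSP70 of the endoplasmic reticulum, were lower, Nfu_g_1_006417 by 1.59 (SE 0.15, FDR 5.3e-05). HSP90AB1, the most abundant member, varied more among fish of 1 age than between ages, at 1646 to 2677 CPM in the young and 1392 to 2746 CPM in the old (-0.15, SE 0.20, FDR 0.62). The leading risers were members of the DNAJC class, DNAJC6 (0.41, SE 0.07, FDR 0.0012), which uncoats clathrin vesicles, DNAJC9 (0.59, SE 0.11, FDR 0.003), a histone chaperone, and DNAJC13 (0.23, SE 0.06, FDR 0.013). Without 39 dph replicate 2 the 6 risers numbered 3.

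Of 30 clock genes 8 were higher and 6 lower. All named genes likewise moved in both directions (19.7% higher, 19.2% lower), and the share of clock genes called lower was near theirs. ARNTL, which encodes the main partner of CLOCK, fell from 41.8, 49.9, 54.7 and 54.4 CPM to 31.4, 24.2, 22.2 and 29.2 CPM (log2 fold change -0.90, SE 0.15, FDR 0.0014). Its paralog ARNTL2 (Nfu_g_1_012032) rose as given above, while another identifier of that name, Nfu_g_1_008319, was not called (0.03, SE 0.13, FDR 0.90). The output factors TEF (1.07, SE 0.17, FDR 0.0012) and HLF (Nfu_g_1_023410, killifish symbol TEFA; 0.87, SE 0.11, FDR 0.00021) rose. The HLF identifiers Nfu_g_1_010082 (0.40, SE 0.21, FDR 0.19) and Nfu_g_1_016584 (0.15, SE 0.13, FDR 0.44) were not called. The repressor PER3 fell by 0.42 (SE 0.09, FDR 0.0052). Other repressors, named after their values were seen, went both ways, with PER2 at -0.78 (SE 0.18, FDR 0.0096), PER1 at 0.54 (SE 0.12, FDR 0.0083) and CRY2 (killifish symbol CRY3) at 0.44 (SE 0.13, FDR 0.028). The call of CRY2 was lost without the shallow library (FDR 0.071), and its FDR reached 0.079 with a single fish left out. CRY1 was not called (0.20, SE 0.09, FDR 0.11). Of the identifiers named NR1D2, a repressor of ARNTL transcription, Nfu_g_1_010960 (killifish symbol NR1D2A) fell by 0.84 (SE 0.10, FDR 0.00016). Identifiers in the opposite direction, with other killifish symbols, are given among the closing observations. All fish were dissected within the same early morning window, and the hour for each fish was not used here.

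Erythrocyte genes rose more than any other list of 10 or more, with 9 of 10 higher, 0 lower and a median of 1.36. Their summed level was 673.5 to 854 CPM in the young fish and 1888 to 2734 CPM in the old, and 1433 to 4100 CPM at 73 dph. No listed marker with an identifier was at 0. HBG1, the human name of a pair of globin genes, was at 338, 426, 298 and 269 CPM at 39 dph and at 1005, 1080, 1594 and 1524 CPM at 108 dph for Nfu_g_1_007654 (log2 fold change 1.97, SE 0.33, FDR 0.0015). The copy Nfu_g_1_007641 rose by 2.23 (SE 0.34, FDR 0.00079). Globin copies can share reads, so the split between them is uncertain.

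The red cell genes that are not globins were also called higher, except the ALAS2 copy Nfu_g_1_019411 (0.14, SE 0.28, FDR 0.76). SLC4A1, the anion exchanger of the red cell membrane, was at 86.0, 79.4, 76.0 and 80.4 CPM in the young and at 157, 165, 178 and 148.5 CPM in the old fish (log2 fold change 1.01, SE 0.09, FDR 4.1e-05). EPB41, of the membrane skeleton, rose by 1.71 (SE 0.22, FDR 0.00031) and GATA1, the transcription factor of the red cell lineage, by 2.26 (SE 0.34, FDR 0.00083). GATA1 was at 4.46, 2.34, 2.35 and 2.99 CPM in the young and at 8.97, 19.8, 17.5 and 11.9 CPM in the old fish, without overlap. Without the shallow library 7 of the 10 were called, with a median of 1.42, and leaving out any 1 fish gave 6 to 9.

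Genes of redox defence and iron handling rose in 12 of 29 cases and fell in 1, with a median of 0.31. FTL, the ferritin light chain, was at 360.1, 329.8, 379.5 and 342 CPM at 39 dph and at 647, 539, 685 and 579.6 CPM at 108 dph (log2 fold change 0.80, SE 0.09, FDR 0.00012). The thioredoxin TXN rose by 0.46 (SE 0.06, FDR 0.00046) and BLVRB, which reduces biliverdin and is abundant in red cells, by 1.05 (SE 0.20, FDR 0.0027). The 1 faller was SESN2, a stress-induced regulator of growth signalling (-0.41, SE 0.10, FDR 0.0085). The erythrocyte sums given above rose in the same fish, and their part in the rise of this list was not tested.

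Oligodendrocyte and myelin genes were lower in 10 of 19 cases and higher in 1, with a median of -0.38. Their summed level was 9150 to 11270 CPM in the young and 5948 to 8620 CPM in the old fish. CNP, an enzyme of myelin, stood at 99.5, 122, 116 and 100.2 CPM at 39 dph and at 40.8, 54.6, 53.3 and 64.3 CPM at 108 dph (log2 fold change -1.04, SE 0.12, FDR 0.00017). All old fish were below all young ones. OLIG1, a transcription factor of the lineage, fell by 0.67 (SE 0.13, FDR 0.0034). PDGFRA, a receptor of the precursor cells, was the 1 riser (0.48, SE 0.16, FDR 0.041), and its call was lost without the shallow library (FDR 0.087) and without 4 other fish (0.082 to 0.12). In the fit on all 24 fish 5 members were lower, and without the shallow library 7 were lower.

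Other glial lists gave less. Astrocyte and radial glia genes were lower in 7 of 23 cases and higher in 4. ALDH1L1 (Nfu_g_1_011190), of folate metabolism and an astrocyte marker, fell by 0.70 (SE 0.12, FDR 0.0013), and SLC4A4 (Nfu_g_1_017240), a bicarbonate transporter, rose by 0.80 (SE 0.10, FDR 0.00029). The 7 fallers numbered 2 in the fit on 24 fish and without 108 dph replicate 1, 3 without 108 dph replicate 2 or 39 dph replicate 2, and 4 without 108 dph replicate 3, and the 4 risers numbered 1 without 39 dph replicate 2 and 2 without 39 dph replicate 3. Of 10 genes of microglia and leukocytes, TLR5, a receptor for bacterial flagellin (1.02, SE 0.18, FDR 0.0018), and GPNMB were higher and none was lower, and their sums, 155 to 164 CPM in the young and 138 to 169 CPM in the old fish, overlapped. A lower member was called without 108 dph replicate 1 or 39 dph replicate 1. The list does not hold TMEM119, a name used as a microglia marker and looked up after its values were seen. Both its identifiers were called lower, at -1.16. Among 14 genes of interferon signalling and antigen presentation 3 were higher and 0 lower, the kinases JAK2 (1.02, SE 0.09, FDR 4.2e-05) and JAK1 (0.55, SE 0.09, FDR 0.0012) and their target STAT3 (0.64, SE 0.11, FDR 0.0021). These 3 serve cytokine signalling in general. In this list and in that of microglia and leukocytes, the share called higher was near the 19.7% of all named genes. Without 108 dph replicate 3 a lower member was called.

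Genes of lysosomes and autophagy rose in 38 of 88 cases and fell in 6, with a median of 0.25. SQSTM1, the autophagy receptor p62, was at 45.6, 52.4, 43.8 and 55.3 CPM in the young and at 145, 105, 114 and 104.5 CPM in the old fish (log2 fold change 1.26, SE 0.12, FDR 5e-05). EPG5, which tethers autophagosomes to lysosomes, went from 59.7 to 63.2 CPM to 123 to 140.4 CPM (1.07, SE 0.07, FDR 1.1e-05). ATP6V0A2 (Nfu_g_1_004380), a subunit of the proton pump, rose by 1.10 (SE 0.08, FDR 1.5e-05). None of these overlapped between the ages. The fallers included the growth kinase MTOR (-0.30, SE 0.07, FDR 0.0077), which restrains autophagy, and ATP6V1H, of the proton pump (-0.34, SE 0.05, FDR 0.0011). Also lower was ULK2 (Nfu_g_1_017865; -0.51, SE 0.09, FDR 0.0026), an initiating kinase. Both identifiers of the related name ULK1, looked up after their values were seen, were called higher, at 0.44 and 0.60.

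Sterol and fatty acid genes were lower in 13 of 29 cases and higher in 3, with a median of -0.23. FADS1, a desaturase of polyunsaturated fatty acids, was at 276, 303, 269 and 246 CPM at 39 dph and at 115, 135, 127 and 166 CPM at 108 dph (log2 fold change -1.01, SE 0.14, FDR 0.00046). At 73 dph it was still at 248 to 376 CPM. SQLE, an early enzyme of the sterol branch, fell by 1.67 (SE 0.27, FDR 0.0012) and CYP51A1, a later one, by 0.73 (SE 0.13, FDR 0.0017). Higher was ABCA1, which exports cholesterol, from 185, 152, 153 and 179 CPM to 440, 355, 367 and 274 CPM (1.10, SE 0.13, FDR 0.00019). The phosphatidate phosphatases LPIN1 (Nfu_g_1_018267; 0.50, SE 0.10, FDR 0.0039) and LPIN2 (Nfu_g_1_006924; 0.97, SE 0.24, FDR 0.011) also rose. Other identifiers of these names were not called, LPIN1 Nfu_g_1_012711 (-0.15, SE 0.17, FDR 0.55) and LPIN2 Nfu_g_1_020586 (-0.13, SE 0.083, FDR 0.29). The latter was the more abundant LPIN2 identifier, with a mean of 87.8 CPM at 39 dph against 8.28 CPM.

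In oxidative phosphorylation 16 of 51 genes were lower and 3 higher, and the changes were small, with a median of -0.13. ATP5A1 (Nfu_g_1_006324), of the ATP synthase, fell by 0.42 (SE 0.06, FDR 0.00079) and UQCRQ, of complex III, by 0.37 (SE 0.06, FDR 0.0015). The complex II subunit SDHA rose by 0.32 (SE 0.06, FDR 0.0041). In the fit on 24 fish 9 were lower. Of 76 cytosolic ribosomal genes 2 were higher and 1 lower, and the higher numbered 8 without 108 dph replicate 1 and 0 without 108 dph replicate 3 or 4 or 39 dph replicate 2 or 3. Each other fish of 39 or 108 dph left out gave 1 higher, and the 1 lower was lost without 108 dph replicate 1, 2 or 3 or 39 dph replicate 2 or 3. Of 33 genes of the mitochondrial ribosome 3 were higher and 4 lower, the lower numbering 2 without 108 dph replicate 1 or 39 dph replicate 3, and the higher 5 without 108 dph replicate 1. Of 27 proteasome genes 1 was higher and 2 lower, and leaving out any 1 of the 8 fish except 39 dph replicate 1 gave 0 or 1 lower. The proteasome riser was PSMF1, an inhibitor of the proteasome, which rose by 0.58 (SE 0.08, FDR 0.00048).

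Chromatin modifiers were lower in 44 of 140 cases and higher in 25, with a median of -0.05. JARID2, a cofactor of Polycomb complex 2, was at 169, 195, 223 and 243 CPM in the young, 788 to 1165 CPM at 73 dph, and 550.4, 556.5, 624 and 573 CPM in the old fish, so that the intermediate age was the highest (log2 fold change of 108 over 39 dph 1.47, SE 0.13, FDR 2.9e-05). SMARCE1, of the BAF remodelling complex, fell from 159, 172, 159 and 159 CPM to 77.3, 73.5, 70.7 and 69.1 CPM (-1.16, SE 0.08, FDR 1e-05), and CBX1 (Nfu_g_1_000930), a heterochromatin protein, by 0.88 (SE 0.08, FDR 2.9e-05). Without 39 dph replicate 2 the 25 risers numbered 15.

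Splicing factors were lower in 29 of 92 cases and higher in 13, with a median of -0.11. SRSF1, a general splicing activator, fell by 0.77 (SE 0.08, FDR 5.6e-05) and SRRM1 by 0.49 (SE 0.05, FDR 0.00012). The neuronal regulator NOVA2 (Nfu_g_1_016415) rose by 0.77 (SE 0.13, FDR 0.0015). The most abundant, RBM5, was higher by 0.33 (SE 0.07, FDR 0.004).

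Of 150 synaptic genes 32 were lower (21.3%) and 19 higher (12.7%), with a median of -0.11. GRIK2, a kainate receptor subunit, went from 16.7, 18.9, 16.1 and 16.6 CPM to 61.6, 43.4, 44.2 and 46.0 CPM (log2 fold change 1.51, SE 0.13, FDR 2.6e-05), and GLRB (Nfu_g_1_013804), of the glycine receptor, rose by 0.84 (SE 0.09, FDR 0.00012). LRRTM2, an adhesion protein of excitatory synapses, fell by 1.29 (SE 0.14, FDR 9.9e-05), and GABRB2 (Nfu_g_1_004307), of the GABA receptor, by 0.65 (SE 0.08, FDR 0.00016). SNAP25 (Nfu_g_1_017443) rose by 0.25 (SE 0.05, FDR 0.0048). Without 39 dph replicate 2 or 3 the 19 risers numbered 12.

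Matrix genes were lower in 17 of 58 cases and higher in 7, with a median of -0.27, and depended on single fish. COL1A2 (Nfu_g_1_013298), a chain of fibrillar collagen I, was at 15.3, 92.0, 125.5 and 182 CPM in the young and at 5.70, 9.81, 28.1 and 25.9 CPM in the old fish, so that 39 dph replicate 1 lay within the old group (log2 fold change -2.56, SE 0.66, FDR 0.015). Without the shallow library 9 members were lower, and leaving out any other fish except 108 dph replicate 4 and 39 dph replicate 1 gave 9 to 11. The 7 risers, among them LAMB1, of basement membranes (0.53, SE 0.11, FDR 0.0051), and LOXL3, a collagen crosslinker (1.72, SE 0.36, FDR 0.0054), numbered 3 without 39 dph replicate 3, and 4 without 39 dph replicate 1 or 2 or 108 dph replicate 3. The same collagen copies made up the 2 fallers among 5 genes of choroid plexus and meninges, of which 2 others were higher, KCNJ13, a potassium channel of the choroid epithelium (0.88, SE 0.20, FDR 0.0076), and RBP4, the retinol carrier (0.62, SE 0.19, FDR 0.029). The call of RBP4 was lost without 108 dph replicate 1 (FDR 0.074), 3 (0.058) or 4 (0.052) or without 39 dph replicate 2 (0.072). Vessel genes were higher in 3 of 18 cases, but in 1 without 39 dph replicate 2 or 3, and lower in 2, but in 1 without 108 dph replicate 1, 2 or 3 or 39 dph replicate 1 or 2, with PDGFRB, the receptor of pericytes, up by 0.87 (SE 0.20, FDR 0.0076). The share of vessel genes called higher was near the 19.7% of all named genes, and the share called lower was below their 19.2%.

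Genes of neighbouring tissues were few among the named genes. Of 5 muscle genes, MYL1, a myosin light chain of skeletal muscle, was at 92.4 CPM in the shallow library and at 0.40 to 1.74 CPM in the other young fish, and its log2 fold change of -5.15 (SE 1.6, FDR 0.034) became -1.0 (FDR 0.46) without that library. Its call was also lost without any 1 of the 4 old fish, with an FDR of 0.063 to 0.081. The 4 other muscle genes were not called, but 1 was called higher without the shallow library. Of 2 retina genes, RPE65, an enzyme of the visual cycle, fell by 0.83 (SE 0.12, FDR 0.00068). Of 2 genes of complement and acute phase, C7 rose as given above.

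In the list of enzymes and receptors of steroid action 4 of 16 genes were lower and 3 higher. The 16 include SYBU, AMH and FOXL2, which are neither enzymes nor receptors of steroids and were not called. The share called higher was near the 19.7% of all named genes. The 4 lower numbered 2 without 108 dph replicate 1, 2 or 3 or 39 dph replicate 2 or 3. ESR1 (Nfu_g_1_018712), an estrogen receptor, was at 6.97, 6.42, 6.04 and 8.76 CPM at 39 dph and at 17.1, 13.1, 12.7 and 11.1 CPM at 108 dph (log2 fold change 0.96, SE 0.16, FDR 0.0015). Another identifier of that name, Nfu_g_1_019052, was not called (0.08, SE 0.086, FDR 0.56). Its mean was 17.8 CPM at 39 dph and 18.8 CPM at 108 dph. The mineralocorticoid receptor NR3C2 rose by 0.71 (SE 0.14, FDR 0.0038) and the glucocorticoid receptor NR3C1 by 0.68 (SE 0.14, FDR 0.005). ESRRB (killifish symbol ESRRA), an orphan nuclear receptor, had the lowest FDR of the list and fell from 64.3, 70.7, 58.7 and 61.1 CPM to 37.5, 40.2, 43.9 and 46.8 CPM, without overlap (-0.60, SE 0.08, FDR 0.00052). HSD17B12 (Nfu_g_1_018107), of the hydroxysteroid dehydrogenase family, fell by 0.87 (SE 0.19, FDR 0.0065). CYP19A1 (Nfu_g_1_007967), an aromatase, which makes estrogen, was at 211, 188, 179.8 and 279.7 CPM in the young and at 301, 283.5, 274 and 123 CPM in the old females, where replicate 4 was below every young fish (0.20, SE 0.26, FDR 0.62). The copy Nfu_g_1_016264 (killifish symbol CYP19A1A) was at 0.06, 4.24, 15.8 and 1.84 CPM in the young and at 0.16 to 1.07 CPM in the old fish (-3.20, SE 1.0, FDR 0.037), and without 39 dph replicate 3 it was at -1.77 (FDR 0.20), with the call also lost without 39 dph replicate 2 (0.056) or 108 dph replicate 1 (0.085), 2 (0.09) or 3 (0.061). SYBU, which the study names for its place beside the sex-determining gene, was not called (0.24, SE 0.18, FDR 0.37). Of 17 neuropeptides and secretory proteins 2 were higher, among them CHGB, of secretory granules (0.72, SE 0.11, FDR 0.00079), and 2 lower, PCSK1, a prohormone convertase (-0.85, SE 0.12, FDR 0.00062), and CCK (-0.73, SE 0.18, FDR 0.012). The fallers numbered 4 without 108 dph replicate 2 or 39 dph replicate 1. The most abundant member was GH1 (killifish symbol PRL), and its level depended on single fish. It was at 6.74, 3.16, 9.17 and 3907 CPM in the young fish. In the old fish it was at 2.12, 4142, 3.05 and 42.4 CPM. GH1 was not called (0.10, SE 2.4, FDR 0.98), and its log2 fold change was 7.36 (FDR 0.10) without the shallow library.

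To ask whether the change was particular to females, the difference between the sexes in the change from 39 to 108 dph was tested in a fit on all 24 fish. None of 19358 genes was called (0%), and the smallest FDR was 0.77. An unadjusted p below 0.05 was reached by 1093 genes (5.65%). DESeq2 called 1, DNAJC17, at an adjusted p of 0.044, which had log2 fold changes of 0.12 in females and 0.91 in males. In males alone 4443 genes were called in that fit, and among named genes 20% were higher and 18.7% lower.

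The lists are therefore set side by side without a claim of difference. Female values are from the fit on females alone and male values from the fit on both sexes, so the counts called are not directly comparable. Mitosis genes had a median of -0.68 in females and -0.58 in males, where 27 were lower and 4 higher. Lysosome and autophagy genes had 0.25 and 0.22, immediate early genes -0.60 and -0.50, and DNA repair genes 0.24 and 0.23. Progenitor genes were at -0.32 in females and -0.23 in males. The values lay further apart for erythrocyte genes, with 1.36 in females and 0.41 in males, where 4 of 10 were higher. The same held for oligodendrocyte genes, with -0.38 and 0.08, where 2 of 19 were lower in males. In females, too, fewer oligodendrocyte genes were called lower in the fit on both sexes, as given above. HBG1 (Nfu_g_1_007654) had a log2 fold change of 1.97 in females and 0.31 (SE 0.36, FDR 0.57) in males, but CNP had -1.04 and -1.08. The smallest FDR of the difference was 0.77 among the erythrocyte and 0.80 among the oligodendrocyte genes. Cytosolic ribosomal genes were higher in 14 of 76 cases in males, with a median of 0.23 against 0.04 in females.

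**Figure D4:**
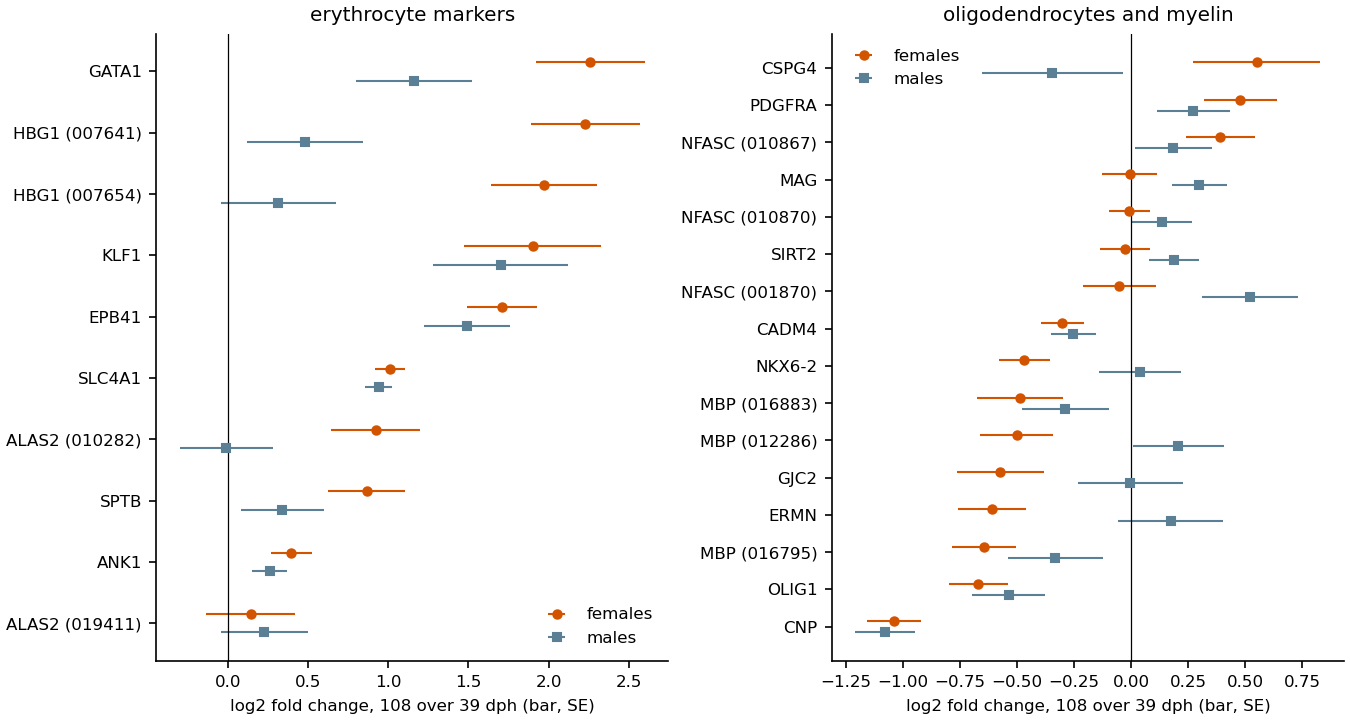
Log2 fold change of 108 over 39 dph with its SE for the 10 erythrocyte genes and 16 of the 19 oligodendrocyte genes, in females (circles, fit on 12 females) and males (squares, fit on 24 fish). Digits in parentheses end the identifier Nfu_g_1_. SLC4A1 and CNP have similar values in both sexes, while both HBG1 copies are further from 0 in females, and no difference between the sexes was called.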

How the data were processed

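Poly(A) RNA of whole brain was sequenced by the authors from stranded libraries. Per the labels and the study's methods, base calls were converted with bcl2fastq 1.8.4, single-end reads were mapped with TopHat2 2.1.0, which reported at most 1 place per read, and sense-strand reads per gene were counted with featureCounts 1.5.0, so genes with near-identical copies can lose or gain reads. The deposited counts were used as they are, and the deposited RPKM only gave gene lengths. Of its 26739 genes, 3759 were without a read in the 24 libraries. The library preparation batch is not given in the sources used here.

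Genes passing filterByExpr (minimum count 10) were fitted with edgeR 4.0.16 in R 4.3.3 on 12 females with 3 age means and TMM scaling, and 108 was contrasted with 39 dph. SE is the absolute log2 fold change divided by the square root of F. The sex difference used 24 fish and 6 group means. Scripts were tested on simulated data.

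Named genes were the 12 largest rises and falls among named genes with FDR below 0.05 with and without the shallow library, no overlap and a mean log2 CPM not under 1, up to 3 members per list and direction, the most abundant member, genes the study names, and up to 2 genes per direction without a name. Some genes that this rule selects are not reported here. The members, the 31 lists and the tests were chosen with earlier results of these data known. Alternatives were DESeq2 1.42.0, its size factors, no filter, the study's filter, 8 or 24 fish, removal of the length trend, an FDR of 0.01 and leaving out each fish. DESeq2 with the study's filter was added after seeing the data.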

Additional observations from a re-analysis of the deposited data

Results flagged for a closer look

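In a group of 4 fish, a value was marked when its gap to the nearest other fish took more of the group's range than Dixon's 95% critical value. Chance marks about 1 group in 20, which would be 6.65 of the 133 groups checked, and 11 were marked. The groups checked did not cover every gene reported above. MYL1 at 39 dph, at 92.39 CPM in replicate 4 against 1.741 CPM in the next fish, was not among them. The 39 dph replicate 4 library had 4595506 reads against 17582640 in the next, and it was also the fish marked for ARNTL2 (Nfu_g_1_012032), at 16.82 CPM against 6.318 CPM. In 39 dph replicate 3, KIF11 was at 43.33 CPM against 18.88 CPM and CYP2J2 (Nfu_g_1_018630) at 13.36 CPM against 5.99 CPM. XRCC2 was marked in replicate 1 of both ages, at 10.69 CPM against 7.94 CPM at 39 dph and at 15.03 CPM against 13.1 CPM at 108 dph. C7 was at 32.06 CPM in 108 dph replicate 1 against 13.85 CPM, and CCNYL1 (Nfu_g_1_013119) at 0.6233 CPM in replicate 3 against 1.333 CPM. For CYP19A1 (Nfu_g_1_007967), 108 dph replicate 4 was at 122.8 CPM against 274.1 CPM. Mean log2 CPM of the chaperone list was 5.899 in 39 dph replicate 1 against 6.027, and that of chromatin modifiers was 5.862 in 108 dph replicate 4 against 5.926.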

How the results depend on the processing

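At an FDR below 0.01, 2047 genes were called, 1038 higher and 1009 lower, in place of 4486, 2312 and 2174, and 219 and 153 changed at least 2-fold in place of 413 and 253. Leaving out 1 fish gave 3232 to 4411 genes, 1558 to 2224 higher and 1674 to 2249 lower, the fewest without 39 dph replicate 3. DESeq2 called 5168, the fit on 8 fish 3877 and the fit on 24 fish 4521. For the sex difference the count of 0 became 1 with DESeq2, and 0 to 1 with a fish left out, the 1 being Nfu_g_1_015401 without male 39 dph replicate 1. Of 177 called named genes, none changed direction in any alternative and 134 kept their call in all those that tested them, while 40 lost it at 0.01, 15 in the fit on 24 fish and 20 without 39 dph replicate 2. At 0.01 the fallers numbered 19 in place of 30 for mitosis, 9 in place of 15 for immediate early genes, 7 in place of 13 for sterol genes and 5 in place of 10 for oligodendrocytes, and the risers 25 in place of 38 for lysosome and autophagy and 6 in place of 12 for redox and iron. Neuropeptide fallers numbered 5 in place of 2 with DESeq2, and interferon risers 5 in place of 3 with 8 fish. No paired analysis was possible because the replicate numbers only name the fish. Precision was limited by 4 fish per age and by the depth of 1 young library.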

Other observations

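Gene identifiers that share a human name, as copies or as related genes, did not always move together in females. Of 204 names with at least 2 called identifiers, 50 (24.5%) had identifiers called in both directions. In 9 of these an identifier rose and another fell by at least 1.5-fold. The examples were chosen after their values were seen. NR1D2, the name of a clock repressor, had 4 called identifiers of 5 tested, 2 higher and 2 lower. They lay between -0.84 and 1.02 on the log2 scale. The higher identifiers carry the killifish symbols NR1D4A and NR1D4B, and the largest faller NR1D2A, so these can be different genes under a shared human name. E2F3, a cell cycle transcription factor, had 1 copy at 0.61 and 1 at -0.76. The chemokine name CXCL6 belonged to identifiers at 1.24 and -1.76. Reads shared between close copies can be split unevenly, and its part in these differences was not tested.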
